A study of Mus musculus with 4 samples.

Results

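The small nuclear ribonucleoprotein genes (Snrp), the like-Sm genes (Lsm) and the genes of splicing factor 3 (Sf3a, Sf3b) encode much of the protein inventory of the spliceosome. They were followed in RNA-sequencing data of cerebellar tissue from wild-type (WT) and Kdm3b+/- mice. Members were all deposited gene IDs whose mouse symbol starts with Snrp, with Lsm and a digit, with Sf3a or with Sf3b, except Snrpn, an imprinted neuronal gene. That rule, which uses names and no measured value, gave 33 of 24532 gene IDs.

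Kdm3b encodes a histone demethylase, and the series compared mice that lack 1 functional copy of it with their WT littermates. Each of the 4 libraries came from 1 adult male mouse: 2 WT and 2 Kdm3b+/-, called WT 1, WT 2, Kdm3b+/- 1 and Kdm3b+/- 2. The mutant allele is a gene trap (pGT0lxf) in 1 embryonic stem cell line (YTC406), carried in every cell of the animal, and the stock was bred to C57Bl/6N and then to C57Bl/6J. The labels call the tissue cerebellum, and the study's methods describe granule-cell-enriched tissue cut by hand from slices of the vermis. No mouse received a treatment or training before the RNA was taken, as far as the labels and methods say.

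Splicing removes introns from pre-mRNA. Its small nuclear RNAs U1, U2, U4 and U5 each carry a ring of 7 Sm proteins, U6 carries a related ring of LSm proteins, and the SF3A and SF3B complexes hold U2 at the branch site of the intron. A cytoplasmic LSm ring that contains LSm1 in place of LSm8 acts instead in mRNA decapping. All nucleated cells need these proteins, so bulk tissue reads them from granule cells, other neurons and glia together, and fewer cells of a type and less RNA per cell cannot be told apart.

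Values are TPM, each transcript's share of all transcripts in the library scaled to a fixed total, and so a level per transcript length. Genotypes were compared with limma on log2(TPM + 1) over 13652 genes whose TPM averaged 1 or more. A called gene had a Benjamini-Hochberg adjusted p below 0.05 together with a difference above 1.2-fold. With 2 mice a group an exact permutation test cannot give a p below 0.333, so beside the model the text says whether the TPM ranges of both groups overlapped. Over all tested genes 63 were called, which is 0.461%, and 16 of the 63 were higher in Kdm3b+/- (23 of 61 after median-ratio scaling of the libraries). The groups did not overlap, with Kdm3b+/- higher, for 19.2% of tested genes and, with Kdm3b+/- lower, for 32% of them. An unadjusted p under 0.05 was reached by 5.47% of tested genes with a higher and 11.5% with a lower level in Kdm3b+/-. The median log2 fold change of all tested genes was −0.07.

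The libraries held 4.92 to 6.69 aligned gigabases each, as recovered from the deposited coverage and FPKM, and the least covered member had a mean coverage of at least 16.1 reads per base in every library. Kdm3b itself was at 9.10 and 11.0 TPM in WT and at 8.30 and 7.90 TPM in Kdm3b+/-, a log2 fold change of −0.27 ± 0.17 (SE, limma adjusted p = 0.424). A gene trap leaves the part of the gene before it transcribed, so this level is only a partial check of the genotype. WT 1 stood apart from WT 2. The 8 Purkinje cell markers summed to 1610 TPM in WT 1 and 679 TPM in WT 2, against 882 and 718 TPM in Kdm3b+/-. All 8 had a lower mean in Kdm3b+/-, with a median log2 fold change of −0.50. Homer3 (−1.08) and Gad1 (−0.58) were lower without overlap (25% of the 8, beside 32% of all tested genes). Both had an unadjusted p under 0.05 and neither was called. The haemoglobin gene Hbb-bs was at 506 TPM in WT 1, 8.08 TPM in WT 2, and 0.0077 and 0.142 TPM in Kdm3b+/- (−5.98, adjusted p = 0.116), while the red cell genes Hba-a1 (0.58) and Hbb-bt (0.41) were higher in Kdm3b+/- without overlap. The 7 granule cell markers, all detected, summed to 4339 and 5191 TPM in WT and to 4692 and 4952 TPM in Kdm3b+/-. Of these 7, 5 had a higher mean in Kdm3b+/- and 2 a lower one. Zic1 (0.58) was higher and Cbln3 (−0.43) lower, both without overlap and with an unadjusted p under 0.05, and neither was called. The 6 oligodendrocyte markers were also high, at 15942 to 17450 TPM in WT and 14758 to 17617 TPM in Kdm3b+/-, and 1 of them, the myelin gene Mobp, was called lower. The 6 astrocyte and Bergmann glia markers summed to 865 and 783 TPM in WT and to 684 and 898 TPM in Kdm3b+/-. Of these, 5 had a lower mean in Kdm3b+/-. Gdf10 (−1.03), Aldh1l1 (−0.69) and Slc1a3 (−0.47) were lower without overlap (50% of the 6, beside 32% of all tested genes). Each of them had an unadjusted p under 0.05, while the water channel gene Aqp4 (1.102) was called higher. Of the 4 molecular layer interneuron markers tested, 3 were lower without overlap (75%, beside 32% of all tested genes). Among them Prkcd (−0.82) and Kit (−0.53) had an unadjusted p under 0.05 and were not called. The part of these cell types in the member values was not tested.

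All 33 members passed the filter on low values, and none was called. Mean TPM was higher in Kdm3b+/- for 25 members and lower for 8, and the median log2 fold change of the members was 0.26. The groups did not overlap for 24 members. Of these, 19 were higher (57.6% of members) and 5 lower (15.2%) in Kdm3b+/-, beside 19.2% and 32% of all tested genes. All 8 members with an unadjusted p under 0.05 were higher, beside 5.47% of tested genes with a higher and 11.5% with a lower level. Adjusted p of the members ran from 0.112 to 0.918. The summed TPM of all members was 3256 and 3316 in WT and 4010 and 3735 in Kdm3b+/-, 1.18 times the WT level. Within that sum the Sm and LSm rings stood above WT and SF3A and SF3B stood level with it.

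**Figure D1:**
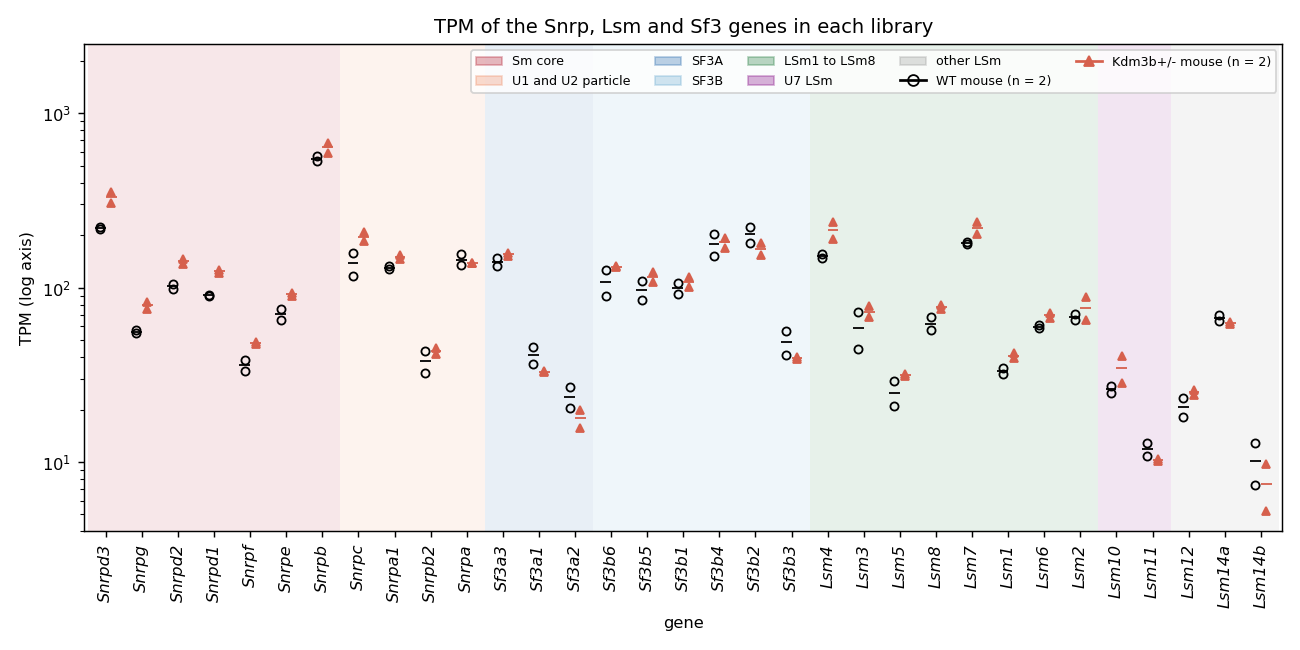
TPM (log axis) of each of the 33 genes in each library, with WT mice as open circles, Kdm3b+/- mice as triangles, a bar at each group mean and background shades for the role classes. All 7 Sm core genes have both Kdm3b+/- triangles above both WT circles, while Sf3a1, Sf3a2 and Sf3b3 have both below.

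The Sm core is the ring itself: Snrpb, Snrpd1, Snrpd2, Snrpd3, Snrpe, Snrpf and Snrpg encode the SmB, SmD1, SmD2, SmD3, SmE, SmF and SmG proteins. Both Kdm3b+/- mice lay above both WT mice for 19.2% of all tested genes. They did so for 48.6% of tested genes under 1500 bases, as most Sm core transcripts are. All 7 Sm core genes were higher in both Kdm3b+/- mice than in either WT mouse. A higher level with an unadjusted p under 0.05 was reached by 6, beside 457 of the 2096 tested genes under 1500 bases. None of the 7 was called. Their median log2 fold change was 0.46, the highest of the role classes, and single values ran from 0.21 for Snrpb to 0.58 for Snrpd3. Snrpb, the most abundant member of all 33, was at 531 and 569 TPM in WT and at 679 and 595 TPM in Kdm3b+/-. Its groups were the closest of the 7, with a log2 fold change of 0.21 ± 0.12 (SE) and a limma adjusted p of 0.407.

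Snrpd3, whose protein pairs with SmB in the ring, was at 217 and 222 TPM in WT and at 354 and 305 TPM in Kdm3b+/-. The log2 fold change was 0.58 ± 0.13 (SE, 95% interval 0.29 to 0.87) with an adjusted p of 0.112, the lowest of the members. Both Kdm3b+/- values lay well above the WT pair, which differed from each other by only a few TPM. Snrpd1 and Snrpd2 encode partners of one another in ring assembly. Snrpd1 was at 89.9 and 90.9 TPM in WT and at 122 and 127 TPM in Kdm3b+/- (log2 fold change 0.46, adjusted p = 0.168). Snrpd2 was at 105 and 98.5 TPM in WT and at 146 and 137 TPM in Kdm3b+/- (log2 fold change 0.47, adjusted p = 0.158).

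SmE, SmF and SmG form the remaining trio of the ring. Snrpe was at 75.7 and 65.1 TPM in WT and at 90.1 and 93.4 TPM in Kdm3b+/- (log2 fold change 0.38, adjusted p = 0.237). Snrpf, the least abundant of the 7, was at 38.4 and 33.4 TPM in WT and at 47.7 and 48.5 TPM in Kdm3b+/- (log2 fold change 0.41, adjusted p = 0.220). Snrpg was at 57.3 and 54.6 TPM in WT and at 75.5 and 82.7 TPM in Kdm3b+/- (log2 fold change 0.49, adjusted p = 0.164). In all 3 genes the 2 mice of a genotype lay closer to each other than to any mouse of the other genotype.

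Although the ring holds 1 copy of each protein, mean TPM of the 7 genes spanned 14.1-fold. Snrpb alone made up 47.7% and 50.2% of the Sm core sum in WT and 44.9% and 42.8% in Kdm3b+/-, and Snrpd3 made up 19.5% and 19.6% in WT and 23.4% and 21.97% in Kdm3b+/-. The sum was 1113 and 1134 TPM in WT and 1513 and 1389 TPM in Kdm3b+/-, 29.2% higher. Without Snrpb it was 583 and 565 TPM in WT and 834 and 794 TPM in Kdm3b+/-, 1.42 times the WT level. All 7 genes kept a higher level in Kdm3b+/- in each of the 17 processing alternatives tried, and their median was 0.51 without WT 1. Several alternatives, such as the filters, variance models and replicate block, cannot change a gene's log2 fold change. Agreement in those was fixed in advance. The count with an unadjusted p under 0.05 was less steady. It was 4 without WT 2, 3 without Kdm3b+/- 1, 2 without Kdm3b+/- 2 and 3 after the correction for transcript length and GC content given further on.

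Promoters of 26 of the 33 members were used, placed by the RefSeq table of GRCm38.p6, including those of 5 of the 7 Sm core genes. They are shown because these genes share a direction between genotypes, as the 120 bases before the annotated start, 5′ to 3′ on the strand of the gene, with capitals on the letters of the motifs searched.
Snrpd2, chr7:19149718-19149837, plus strand: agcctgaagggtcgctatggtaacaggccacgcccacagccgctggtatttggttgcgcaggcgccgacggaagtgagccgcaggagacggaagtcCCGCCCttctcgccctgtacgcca
Snrpd3, chr10:75517922-75518041, plus strand: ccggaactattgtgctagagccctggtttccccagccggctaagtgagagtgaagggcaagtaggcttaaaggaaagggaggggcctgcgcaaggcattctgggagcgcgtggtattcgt
Snrpe, chr1:133610281-133610400, minus strand: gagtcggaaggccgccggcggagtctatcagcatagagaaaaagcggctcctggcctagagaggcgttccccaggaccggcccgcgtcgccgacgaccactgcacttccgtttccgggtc
Snrpf, chr10:93589659-93589778, minus strand: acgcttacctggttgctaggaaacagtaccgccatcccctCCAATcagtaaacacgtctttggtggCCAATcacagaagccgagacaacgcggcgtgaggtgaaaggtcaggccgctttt
Snrpg, chr6:86371420-86371539, plus strand: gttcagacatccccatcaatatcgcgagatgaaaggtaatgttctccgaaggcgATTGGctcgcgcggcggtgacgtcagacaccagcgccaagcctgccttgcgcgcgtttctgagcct

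The letters searched on both strands were the TATA box as TATAAA, the CCAAT box as CCAAT, the GC box as GGGCGG, an ETS factor core as CCGGAAG, part of an NRF1 site as CATGCGC, a YY1 core as AAGATGG and an E-box as CACGTG. In the 300-base windows around the start, 250 bases before it and 50 after, 3 of the 5 Sm core promoters held CCAAT letters, 2 held GC box letters, 2 held ETS letters and none held a TATA box. Among tested genes with a promoter, 42.9% held CCAAT letters, 68.5% GC box letters, 19.0% ETS letters and 8.73% TATA letters. The Sm core promoters thus had no motif in all 5, and the stretches shown for Snrpd3 and Snrpe held none of the searched letters. A match is a description of letters and not a site.

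Some Sm core transcripts share sequence with processed copies elsewhere in the genome, so their values are less certain. Of all 50-base words in the transcript, 28.4% of Snrpe, 21.3% of Snrpf, 18.1% of Snrpg, 13.8% of Snrpd1 and 11.7% of Snrpd2 recur in another gene, all of them annotated as pseudogenes. Snrpd3 shared none and Snrpb 0.0899%. Snrpf also overlaps Ccdc38 on the opposite strand by 1298 bases, and without strand information reads from both genes cannot be told apart there.

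U1 and U2 particle proteins bind their own small nuclear RNA beside the Sm ring. Snrpc encodes the C protein of U1, which helps U1 to recognise the start of the intron, and Snrpa encodes the A protein of U1. Snrpc was at 117 and 158 TPM in WT and at 207 and 185 TPM in Kdm3b+/-, a log2 fold change of 0.52 ± 0.16 (SE) with an adjusted p of 0.190. The WT mice were far apart but both were below the Kdm3b+/- pair, and the log2 fold change was 0.30 without WT 1 and 0.74 without WT 2. In addition, 26.7% of its 50-base words recur elsewhere. Snrpa was at 134 and 155 TPM in WT and at 138 and 139 TPM in Kdm3b+/-, with overlapping groups and a log2 fold change of −0.06 that turned positive, to 0.04, without WT 2. Its sequence is also shared, for 22.5% of its words.

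Snrpa1 and Snrpb2 encode the A′ and B″ proteins of U2, which act as a pair. Snrpa1 did not overlap between groups (log2 fold change 0.20, adjusted p = 0.435), and Snrpb2 overlapped (0.20, adjusted p = 0.569; −0.0021 without WT 2). Over the 4 genes the sum was 428 and 473 TPM in WT and 539 and 516 TPM in Kdm3b+/-, 1.17 times the WT level, and the median log2 fold change was 0.20.

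LSm1 to LSm8 are the 8 proteins from which the nuclear U6 ring and the cytoplasmic decapping ring are built. All 8 genes had a higher mean in Kdm3b+/-, 6 of them without overlap (75%). That share was 19.2% of all tested genes and 48.6% of those under 1500 bases, as most of these transcripts are. Of the 8 genes, 1 had a higher level with an unadjusted p under 0.05, beside 457 of the 2096 tested genes under 1500 bases. None of the 8 was called. Their median log2 fold change was 0.31, and it was 0.19 without WT 2. The sum was 669 and 608 TPM in WT and 844 and 762 TPM in Kdm3b+/-, 1.26 times the WT level.

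Lsm4, a shared subunit of both rings, was at 157 and 148 TPM in WT and at 237 and 189 TPM in Kdm3b+/-. Its log2 fold change was 0.47 ± 0.15 (SE, 95% interval 0.15 to 0.80) with an adjusted p of 0.183, the lowest of the 8. Lsm7, another shared subunit and the most abundant of the 8, was at 178 and 182 TPM in WT and at 239 and 203 TPM in Kdm3b+/- (log2 fold change 0.29, adjusted p = 0.306). For Lsm7 62.8% of the 50-base words recur in other genes, mainly the pseudogene Gm10146, the highest share of the 33 members, so its level is uncertain.

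Lsm2, also shared by both rings, was at 70.4 and 65.5 TPM in WT and at 65.5 and 88.4 TPM in Kdm3b+/-. Its higher mean came from Kdm3b+/- 2 alone. The log2 fold change was 0.16 ± 0.17 (SE, adjusted p = 0.644) and was −0.05 without that library. Lsm1, which marks the decapping ring, and Lsm8, which marks the U6 ring, had similar log2 fold changes of 0.28 and 0.32, with adjusted p of 0.341 and 0.296 and no overlap for either. Lsm5 and Lsm6 did not overlap (log2 fold changes 0.34 and 0.21), and Lsm3 overlapped (0.35). WT 2 was the lower WT mouse for Lsm3 and Lsm5, whose log2 fold changes were 0.01 and 0.11 without it, and 0.69 and 0.57 without WT 1. For Lsm8 they were 0.20 and 0.45.

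Lsm10 and Lsm11 take the places of SmD1 and SmD2 in the ring of U7, the small nuclear RNA for histone pre-mRNA ends. Lsm10 was at 24.9 and 27.4 TPM in WT and at 40.5 and 28.6 TPM in Kdm3b+/- (log2 fold change 0.37, adjusted p = 0.341), and its difference was mostly that of Kdm3b+/- 1, being 0.12 without it. Lsm11 was at 10.8 and 12.9 TPM in WT and at 10.2 and 10.5 TPM in Kdm3b+/- (log2 fold change −0.18, adjusted p = 0.600). The 2 genes thus lay on opposite sides of WT without overlap, unlike Snrpd1 and Snrpd2, both of which lay above it. Of all tested genes, 19.2% lay above WT without overlap and 32% below it. The transcripts of Lsm10 and Lsm11 have 943 and 6453 bases. After the correction for transcript length and GC content the groups overlapped for both.

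The remaining LSm genes are outside the rings. Lsm12 was at 23.2 and 18.1 TPM in WT and at 24.3 and 25.8 TPM in Kdm3b+/- (log2 fold change 0.28, adjusted p = 0.414). Lsm14a, which encodes a translational repressor of cytoplasmic RNA granules, was at 70.1 and 64.2 TPM in WT and at 63.7 and 61.5 TPM in Kdm3b+/- (log2 fold change −0.10, adjusted p = 0.740). Lsm14b, its paralogue and the lowest of the members, was at 12.9 and 7.38 TPM in WT and at 9.77 and 5.25 TPM in Kdm3b+/-. Its groups overlapped, and its log2 fold change of −0.40 had the largest error of the members (SE 0.30, adjusted p = 0.515), running from −0.79 without Kdm3b+/- 1 to −0.0029 without Kdm3b+/- 2. The log2 fold changes of Lsm11 and Lsm12 shrank to −0.06 and 0.11 without WT 2.

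**Figure D2:**
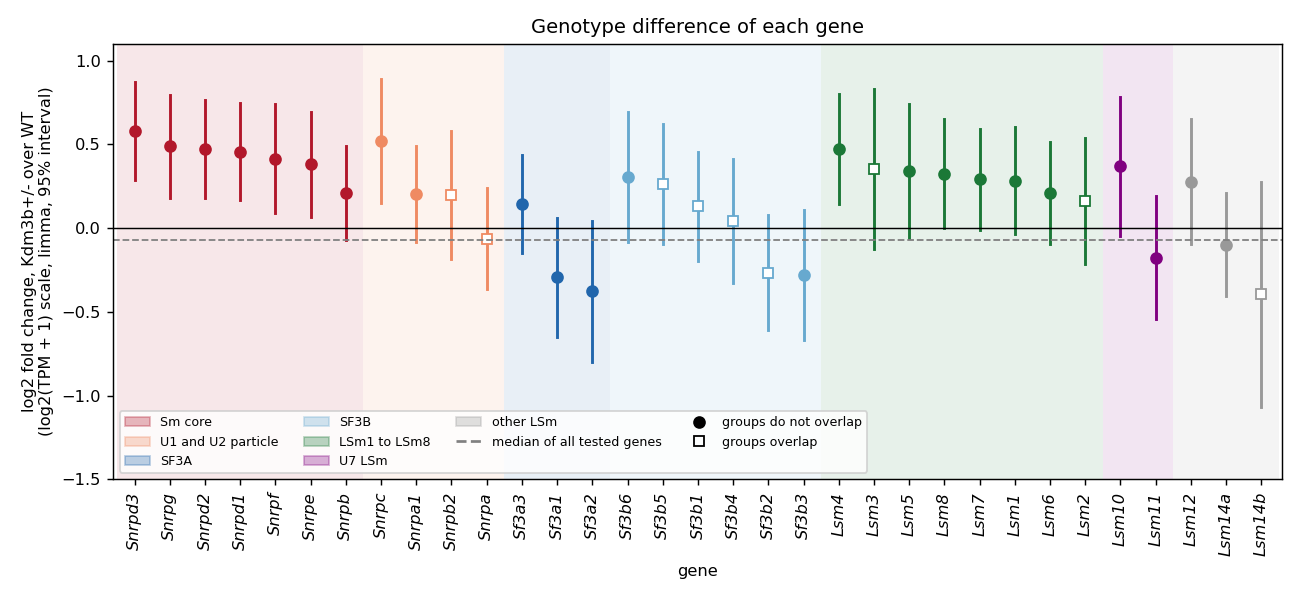
Log2 fold change of each gene, Kdm3b+/- over WT, on the log2(TPM + 1) scale, with 95% intervals from limma (n = 2 mice a group), filled circles where the groups do not overlap, open squares where they do, and a dashed line at the median of all tested genes. The Sm core and LSm1 to LSm8 lie above 0 throughout, the SF3A and SF3B genes spread from −0.38 to 0.31, and many intervals cross 0.

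SF3A and SF3B are the U2-associated complexes that recognise the branch site. Sf3a1, Sf3a2 and Sf3a3 encode SF3A, and Sf3b1 to Sf3b6 are SF3B subunits, of which Sf3b1 and Sf3b6 encode the proteins at the branch site itself. The groups did not overlap for 2 of the 9 genes with Kdm3b+/- higher (22.2%) and 3 with it lower (33.3%), close to the 19.2% and 32% of all tested genes. The other 4 genes overlapped, and none had an unadjusted p under 0.05. The median log2 fold change was 0.04, and it was −0.17 without WT 1 and −0.06 without Kdm3b+/- 1. The SF3 median was 0.105 with FPKM and 0.114 with median-ratio scaling, where the median of all tested genes was −0.01 and −0.0045.

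Sf3a3, the most abundant SF3A gene, was at 147 and 134 TPM in WT and at 158 and 153 TPM in Kdm3b+/- (log2 fold change 0.14, adjusted p = 0.592). Sf3a2 was at 20.3 and 26.8 TPM in WT and at 15.8 and 19.9 TPM in Kdm3b+/- (log2 fold change −0.38, adjusted p = 0.336), and WT 1 and Kdm3b+/- 2 differed by less than 1 TPM. Sf3a1 was also lower without overlap, with a log2 fold change of −0.29 and an adjusted p of 0.369. The 3 subunits form 1 complex, and their mean levels spanned 7.14-fold.

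Sf3b2, the most abundant SF3B gene, was at 180 and 224 TPM in WT and at 155 and 180 TPM in Kdm3b+/- (log2 fold change −0.27, adjusted p = 0.395). WT 1 and Kdm3b+/- 2 were almost equal, so the groups overlapped. Sf3b6 was at 127 and 89.6 TPM in WT and at 132 and 132 TPM in Kdm3b+/- (log2 fold change 0.31, adjusted p = 0.387), and the difference from WT came mostly from WT 2, being 0.06 without it. Sf3b3 was at 41.1 and 56.6 TPM in WT and at 39.2 and 39.9 TPM in Kdm3b+/- (log2 fold change −0.28, adjusted p = 0.428), with WT 1 close to both Kdm3b+/- mice. Without WT 2, which held the higher WT level of each, Sf3a1, Sf3a2, Sf3b2 and Sf3b3 were at −0.13, −0.18, −0.11 and −0.06. Sf3b1 (0.13), Sf3b4 (0.04) and Sf3b5 (0.26) overlapped between groups. Sf3b4 is uncertain on another ground, since 49.3% of its 50-base words recur in a pseudogene.

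The 9 genes together were at 904 and 971 TPM in WT and at 964 and 936 TPM in Kdm3b+/-, 1.01 times the WT level. The SF3A sum was the steadiest of the classes, at 204 and 206 TPM in WT and at 206 and 206 TPM in Kdm3b+/-, since the higher Sf3a3 offset the lower Sf3a1 and Sf3a2. The ratio of the Sm core sum to the SF3A and SF3B sum, which does not depend on library scaling, was 1.23 and 1.17 in WT and 1.57 and 1.48 in Kdm3b+/-. The ratio of the LSm1 to LSm8 sum to the SF3 sum was 0.740 and 0.626 in WT and 0.876 and 0.814 in Kdm3b+/-. The Sm core to LSm1 to LSm8 ratio overlapped between groups, at 1.66 and 1.86 in WT and 1.79 and 1.82 in Kdm3b+/-.

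**Figure D3:**
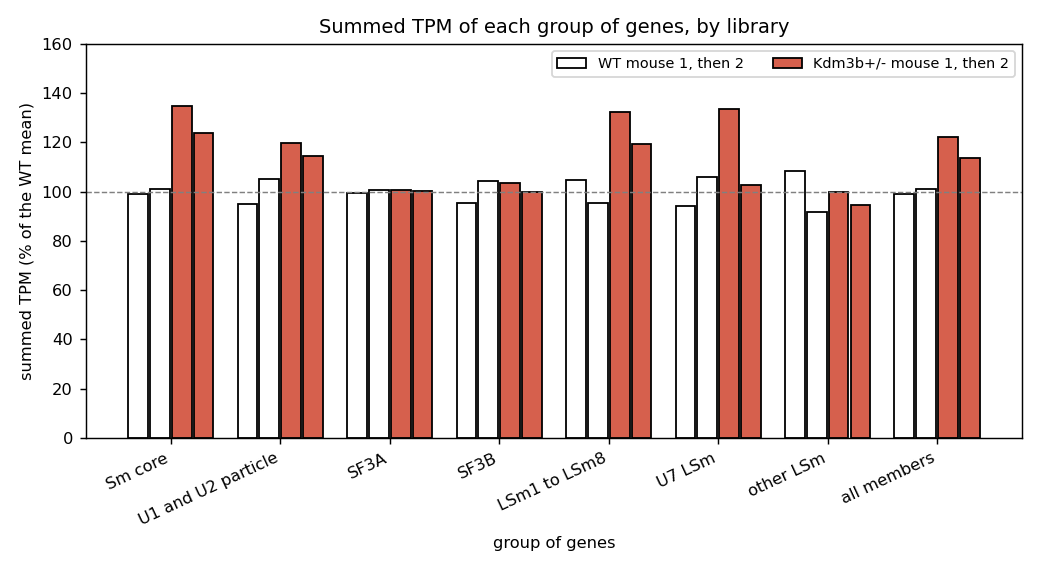
Summed TPM of each class of genes in each library, as a percentage of the mean of the 2 WT mice, with a bar per mouse (WT open, Kdm3b+/- filled). The Sm core, U1 and U2 particle and LSm1 to LSm8 bars of both Kdm3b+/- mice stand above both WT bars, and the SF3A and SF3B bars stand near 100%.

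Promoters of the SF3 genes mostly held the ETS letters. In the same 300-base windows 6 of the 7 SF3 promoters used held CCGGAAG on either strand. These letters were in 2 of 5 promoters of the Sm core, 1 of 6 of LSm1 to LSm8 and 19.0% of those of tested genes. Over all members the share was 42.3% (11 of 26). Below are 3 that lie close to the start or hold a pair, and the promoter of Sf3a2, the lowest SF3 gene by log2 fold change, with the same capitals and build.
Sf3a1, chr11:4160234-4160353, plus strand: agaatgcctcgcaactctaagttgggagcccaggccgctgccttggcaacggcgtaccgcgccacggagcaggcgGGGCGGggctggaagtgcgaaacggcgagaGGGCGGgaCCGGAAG
Sf3a2, chr10:80798615-80798734, plus strand: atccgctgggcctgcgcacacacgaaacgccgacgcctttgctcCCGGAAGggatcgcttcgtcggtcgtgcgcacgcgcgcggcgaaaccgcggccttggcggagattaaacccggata
Sf3b2, chr19:5295456-5295575, minus strand: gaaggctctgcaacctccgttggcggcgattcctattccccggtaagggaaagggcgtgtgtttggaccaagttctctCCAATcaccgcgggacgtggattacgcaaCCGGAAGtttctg
Sf3b6, chr12:4817488-4817607, plus strand: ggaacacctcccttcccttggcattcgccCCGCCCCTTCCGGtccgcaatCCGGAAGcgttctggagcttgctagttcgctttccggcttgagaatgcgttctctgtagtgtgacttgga

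Sf3b6 held the ETS letters on each strand, the first copy abutting a GC box, and it lay above WT, while Sf3a1, Sf3a2 and Sf3b2, with the same letters, had lower means. Sf3a3, with a higher mean, and Sf3b3, with a lower one, held the letters too, and Sf3b1, without them, had a higher mean. Whether the letters relate to direction was not tested. All 6 LSm1 to LSm8 promoters used held GC box letters, as did 69.2% of members and 68.5% of tested genes. TATA letters were in 2 of 26 members (7.69%) and an E-box in 1 (3.85%). Start sites of 7 members lay within 1000 bases of a divergent neighbour, 21.2% against 13.8% of tested genes. The closest pairs were Sf3a1 with Ccdc157 at 61 bases, Lsm7 with Sppl2b at 66 bases and Snrpd3 with Gucd1 at 70 bases.

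The genotype difference followed transcript length. Across the 33 members Pearson's r between log2 fold change and log2 transcript length was −0.61 and Spearman's rho −0.61, and across the 12904 tested genes with a length they were −0.25 and −0.27. These are correlations across genes, which share the same 4 libraries and are not independent replicates. The Sm core and the LSm rings are mostly short transcripts, with median lengths of 1055 and 840 bases, and the SF3 genes are longer, with a median of 2213 bases. Of the 18 members under 1500 bases, 14 were higher in Kdm3b+/- without overlap (77.8%), beside 48.6% of the 2096 tested genes under that length. Their median log2 fold change was 0.35, beside 0.17. A higher level with an unadjusted p under 0.05 was reached by 7 of the 18, beside 457 of the 2096. Of the 15 longer members, 5 were higher and 5 lower without overlap, which is 33.3% each way, beside 13.0% higher and 37.4% lower of the 10808 longer tested genes. Their median was 0.04, beside −0.11.

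Correcting each library's log2 values for transcript length and GC content lowered most of the ring values. The Sm core median became 0.27, and 6 of the 7 genes still did not overlap, Snrpb being the exception, while the count with an unadjusted p under 0.05 went from 6 to 3 (4 with the replicate block as well). The LSm1 to LSm8 median became 0.12, with 4 of 8 not overlapping and Lsm2 at −0.02. The SF3 median was 0.05, and all members together had a median of 0.13, with 15 higher and 1 lower without overlap (45.5% and 3.03%, beside 24.2% and 24.2% of genes with a length). Snrpd3, with 3036 bases the longest of the Sm core transcripts, was the Sm core gene whose value grew, to 0.71 ± 0.11 (SE, limma adjusted p = 0.0685). The source of the length relation was not tested.

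**Figure D4:**
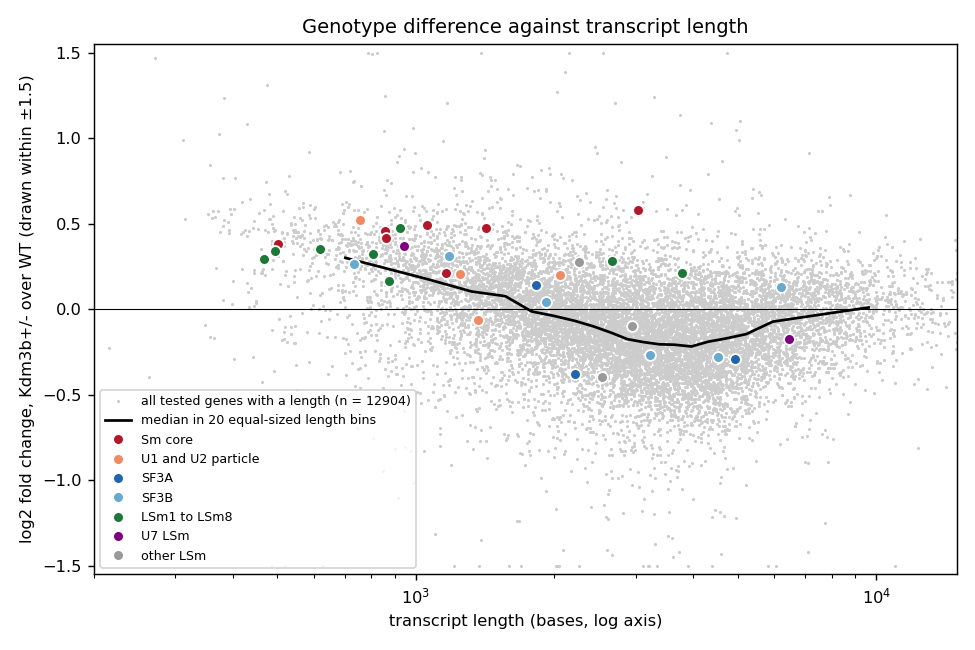
Log2 fold change, Kdm3b+/- over WT, against transcript length (bases, log axis) for the 12904 tested genes with a length (grey, drawn within ±1.5), with members coloured by class and a line through the medians of 20 equal-sized length bins. Short genes lie mostly above 0 and longer genes mostly below it, with many on either side at each length, and Snrpd3 lies far above the line at its length.

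The 80 cytosolic ribosomal protein genes, which are also short (median 816 bases) and abundant, were set beside the rings. Of these, 79 had a higher mean in Kdm3b+/- and 76 were higher without overlap (95%, beside 48.6% of tested genes under 1500 bases). A higher level with an unadjusted p under 0.05 was reached by 56, beside 457 of the 2096 tested genes under 1500 bases. None of the 80 was called, and their median log2 fold change was 0.37. Rpl36al was highest, at 117 and 97.9 TPM in WT and 181 and 161 TPM in Kdm3b+/- (0.67, adjusted p = 0.105), and Rps27 was the only one with a lower mean (−0.20, overlapping). After the length and GC correction their median was 0.19 and 62 of the 80 did not overlap upward (77.5%). For the Sm core the median was 0.27, with 6 of 7 (85.7%). The share over all genes with a length was 24.2%.

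Other spliceosome genes were spread on both sides of WT. Of 76 genes for further particle, tri-snRNP and catalytic-step proteins, all tested, 22 were higher (28.9%) and 16 lower (21.1%) without overlap, beside 19.2% and 32% of all tested genes. None was called, and their median was −0.02, beside −0.07. With an unadjusted p under 0.05, 4 of the 76 were higher and 6 lower. Both were smaller shares than the 5.47% and 11.5% of all tested genes. The 4 higher ones were Ppih (0.44), a cyclophilin of the U4/U6 particle, Snrnp27 (0.36) of the tri-snRNP, Zcrb1 (0.30) of the minor spliceosome and Bud31 (0.29). The 6 lower ones were the helicase Dhx8 (−0.52), Xab2 (−0.42), the step-2 factor Prpf18 (−0.39), the tri-snRNP proteins Prpf6 (−0.39) and Prpf3 (−0.38), and the U5 GTPase Eftud2 (−0.35). Their adjusted p lay at 0.203 or above.

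No gene of the lists that act on or with the members was called. Of the 14 genes that assemble Sm rings, 2 were higher (14.3%) and 3 lower (21.4%) without overlap, beside 19.2% and 32% of all tested genes, with a median of −0.04 and 1 unadjusted p under 0.05, that of Gemin4. Gemin7, of the SMN complex, was highest at 220 and 210 TPM in WT and 285 and 244 TPM in Kdm3b+/- (0.29, adjusted p = 0.302), and Gemin4 was lowest at 8.52 and 12.01 TPM in WT and 6.70 and 7.44 TPM in Kdm3b+/- (−0.47, adjusted p = 0.269). The 13 SR protein genes, splicing regulators, had 2 higher and 2 lower without overlap (15.4% each, beside the same background) and a median of 0.03, none with an unadjusted p under 0.05, from −0.37 for Srsf12 to 0.36 for Tra2b.

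Decapping partners of the LSm1 to LSm7 ring were tested for 9 of 10 genes, with 2 higher (22.2%) and 3 lower (33.3%) without overlap, beside 19.2% and 32% of all tested genes, and a median of −0.04. Edc4, a decapping scaffold, was at 27.1 and 41.8 TPM in WT and at 19.4 and 23.6 TPM in Kdm3b+/- (−0.63, adjusted p = 0.210). Edc3, another activator of decapping, was at 43.9 and 45.3 TPM in WT and at 33.7 and 34.7 TPM in Kdm3b+/- (−0.37, adjusted p = 0.239). Dcp2, the decapping enzyme, was at 2.13 and 2.24 TPM in WT and at 2.83 and 2.90 TPM in Kdm3b+/- (0.28, adjusted p = 0.446). The 8 tested partners of U7 in histone end processing had none higher and 2 lower (25%) without overlap, with a median of −0.13, from −0.41 for Cpsf1 to 0.07 for Cpsf2. Cstf2 (−0.39, adjusted p = 0.261) was the only one of them with an unadjusted p under 0.05.

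**Figure D5:**
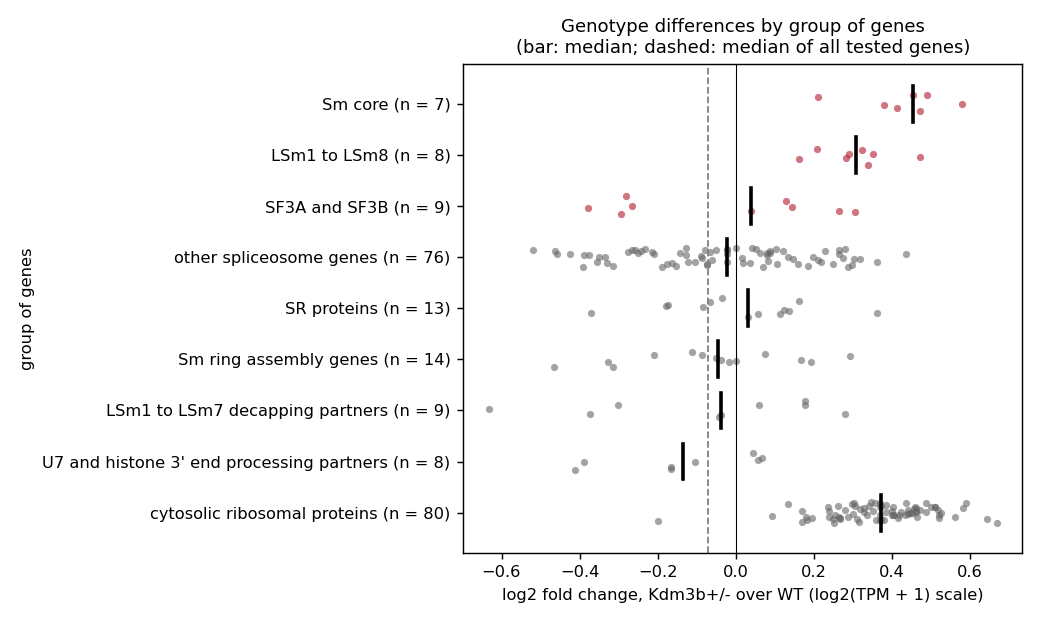
Log2 fold changes, Kdm3b+/- over WT, on the log2(TPM + 1) scale for the genes of each list, a point per gene, with a bar at the list median and a dashed line at the median of all tested genes. The Sm core, LSm1 to LSm8 and ribosomal protein points lie to the right of 0 apart from 1 ribosomal gene, and the other spliceosome lists are spread on both sides.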

How the data were processed

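RNA of cerebellar tissue from 2 WT and 2 Kdm3b+/- mice was sequenced, and the authors aligned the reads with STAR and quantified genes with StringTie. Versions, genome build, annotation and strandedness are not given in the sources used here, and the reads were not used here. The authors deposited, per gene ID and library, the coverage (mean reads per base, a signal), the FPKM and the TPM. TPM sums to 1000000 in each library, so a rise of some genes lowers the rest. No counts were used, so a count test was not run. Symbols came from the RefSeq table of GRCm38.p6, which matched 24462 of the 24532 gene IDs. The deposited gene models had both ends equal to that table for 19 of the 33 members. Promoters on the chromosome that carries Snrpd1 were left out by rule, for members and tested genes alike. A member without a promoter here was therefore not necessarily absent from the table.

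TPM was summed over entries of 1 gene ID, genes with a mean TPM under 1 were left out and log2(TPM + 1) was fitted with limma 3.58.1 (R 4.3.3) with genotype as the only term, eBayes with trend and Benjamini-Hochberg adjustment over 13652 genes. Fold changes on this scale understate those of low genes. The script was tested on simulated data. Tables and figures used Python 3.11.15, pandas 2.3.3, NumPy 2.4.6 and Matplotlib 3.10.9, and the robust fit used statmod 1.5.0. Length and GC content were those of the longest RefSeq-matched GENCODE transcript, with the length capped at the deposited gene model (226 tested genes, 1 member), and were found for 94.5% of tested genes and all 33 members. The labels name mice and no extraction or sequencing batch.

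Every member is named, with TPM per library where the unadjusted p was under 0.05 and for the most abundant, highest and lowest gene by log2 fold change of each class. In other lists the genes with an unadjusted p under 0.05 and the highest and lowest were to be named, of which the ribosomal and marker lists are given in part. Of 10 U7 partners 1 was under the filter and 1 was listed under a misspelt symbol (Symk for Sympk), so that Sympk was not analysed here. The members and lists were chosen with earlier results of these data known. Alternatives were another pseudocount, FPKM, other filters, scalings and variance models, a replicate block, a length and GC correction and the omission of each library. Markers of interneurons (4 of 5 tested, summing to 120 to 338 TPM in WT and 174 to 190 TPM in Kdm3b+/-), microglia (178 to 199 and 190 to 202 TPM), endothelium (114 to 126 and 101 to 131 TPM), meninges and choroid plexus (35.2 to 43.3 and 30.3 to 30.7 TPM) and red cells (233 to 708 and 274 to 312 TPM) were summed as well.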

Additional observations from a re-analysis of the deposited data

How the results depend on the processing

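The filters, the variance models, the replicate block and the use of a single entry per gene ID cannot change a member's log2 fold change. Agreement in those settings was fixed in advance. Of the 33 members, 29 kept their direction in all 17 alternatives. Exceptions were Snrpa (0.0031 with FPKM, 0.011 with median-ratio scaling, and −0.17 to 0.043 when 1 library was left out), Lsm2 (−0.024 with the length and GC correction, alone or with the replicate block, and −0.052 to 0.38 when 1 library was left out), Sf3b4 (−0.17 to 0.25) and Snrpb2 (−0.0021 to 0.40, also when 1 library was left out). The Sm core median was 0.51 with FPKM, 0.53 with median-ratio scaling, 0.50 with quantile normalization, 0.27 with the length and GC correction (also with the block) and 0.42 to 0.51 when 1 library was left out. The median of all members became 0.13 with that correction and 0.17 to 0.31 when 1 library was left out. Counts of members without overlap that were lower in Kdm3b+/- were 5, against 2 with quantile normalization, 1 with the correction and 8 without WT 1, where fewer mice have to be separated. Members higher with an unadjusted p under 0.05 were 8, against 12 with FPKM or median-ratio scaling, 13 with quantile normalization, 14 without WT 1, 3 without Kdm3b+/- 1 and 5 without Kdm3b+/- 2. The 63 calls over all genes became 38 with FPKM, 2 with no filter on low TPM, 37 with eBayes without trend and 21 to 188 when 1 library was left out (21 without WT 1, 28 without WT 2, 121 without Kdm3b+/- 1, 188 without Kdm3b+/- 2), where the lone library is taken to vary like the other group. The cause was not tested. The replicate numbers name different mice, and deviations of same-numbered mice correlated at 0.12, or 0.02 after the correction. With the replicate block 600 genes were called and 2 members, Snrpd3 (adjusted p = 0.0256) and Snrpd2 (adjusted p = 0.04995), and with block and correction 37 genes and no member. Member coverage was high in each library, and the 2 mice a group limit the comparisons.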
